A study of Saccharomyces cerevisiae with 18 samples.

Results

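Of the 2042 nuclear ATAC-seq peaks of budding yeast outside the ribosomal DNA, 215 (10.5%) lay within 100 bp of a nuclear transfer RNA (tRNA) gene of the R64 annotation. They were chosen by position alone, with no use of their counts. They covered 220 of the 275 nuclear tRNA genes (80%), and 204 of the 215 peaks overlapped a tRNA gene. As a class these peaks were of middling strength and kept to the nuclear average between phases of the metabolic cycle. Most also had the start of a coding gene within 500 bp. In the 3 comparisons between phases edgeR called 3, 4 and 2 of them (1.40%, 1.86% and 0.930%), near the 2.78%, 1.49% and 1.44% of all peaks. Among them was the peak at SUF2 and near the citrate synthase gene CIT2. It was 2.40-fold higher in Reductive Building than in the Oxidative phase. That value rests on 2 of the 5 Reductive Building libraries, and with all 18 libraries edgeR called 0 peaks.

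tRNA genes are short genes scattered over all chromosomes in many near-identical copies, and RNA polymerase III transcribes them. The assembly factor TFIIIC binds promoter elements inside the gene, the A and B boxes, and places TFIIIB just upstream, which then recruits the polymerase. Active tRNA genes are bound by this machinery rather than packed into a nucleosome, and in yeast its output follows nutrient supply through the repressor Maf1.

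ATAC-seq, in which a transposase inserts adapters into open DNA, was applied to nuclei of formaldehyde-fixed Saccharomyces cerevisiae cells drawn from a fermenter at 18 consecutive time points. The cells went through the yeast metabolic cycle, a synchronous alternation of respiratory and reductive phases. Per the labels, Reductive Charging covers 8 libraries, at time points 1 to 5 and again at 16 to 18. The Oxidative phase covers 5 libraries, at time points 6 to 10, and Reductive Building the 5 at 11 to 15. The labels used here give no strain, genotype or time in minutes, and they say that samples came in batches without assigning libraries to them, so batch and time point cannot be told apart. Each time point has 1 library. The time points of a phase therefore serve as replicates, and a p-value reflects their spread alone, which mixes technical variation with the course of the cycle.

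Total counts ran from 21254 (time point 16) to 29314373 (time point 4), and counts in nuclear peaks from 9228 to 12477489. In 5 libraries (time points 11, 13, 15, 16 and 18) more than 10% of nuclear peaks had 0 counts, and the tRNA gene peaks at 0 there numbered 6, 43, 118, 185 and 19 of 215. At most 2 tRNA gene peaks were at 0 in each of the remaining 13 libraries, the well-covered ones. They comprised 6 Reductive Charging, 5 Oxidative and 2 Reductive Building libraries, and levels and tests below use them unless stated otherwise. A peak's strength is given as its density, the nuclear CPM per kb: the peak's counts, scaled to a common total of nuclear peak counts per library, per kb of peak length.

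Most of the peaks overlapped a tRNA gene. The 100 bp limit and the median peak length of 589 bp make overlap likely, and no background of positions was measured. The 215 peaks and 220 genes formed 221 pairs, of which 210 overlapped. Single genes accounted for 209 of the peaks, while 6 peaks held 2 genes each and 1 gene, YNCK0019W, had a peak on either side of it. All 16 chromosomes carried at least 1 such peak. How reads that match several near-identical tRNA gene copies were counted is not stated in the sources used here, so the counts inside the genes themselves are uncertain. Along the strand of the gene, the peak centre lay a median of 12 bp downstream of the gene centre (quartiles -50 and 69 bp), and 129 of the 221 pairs (58.4%) were within 100 bp. The 55 genes with no peak within 100 bp are outside this set, and what reads they hold was not measured.

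Most of these peaks also lay near the start of a coding gene. In 145 of the 215 (67.4%) the annotated 5' end of a coding gene lay within 500 bp of the peak, against 88.7% of the other 1827 nuclear peaks. Such a peak is called shared here, whether or not the start lies inside it. Insertions at its tRNA gene and at the coding promoter cannot be told apart. The 70 peaks with no coding gene start nearby were shorter, with a median length of 520 bp against 635 bp for shared peaks. A shorter peak has less room to lie off centre. The 70 were also the more tightly centred. Their pairs had a median offset of -17 bp, slightly upstream, and 52 of 72 (72.2%) were within 100 bp, against 25.5 bp and 77 of 149 (51.7%) for pairs of shared peaks.

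**Figure D1:**
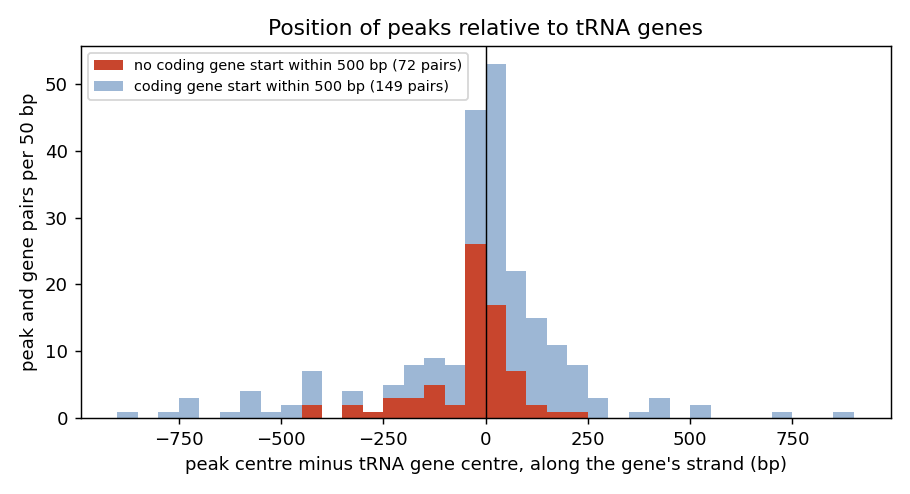
Histogram of the distance from tRNA gene centre to peak centre in bp along the gene's strand (x axis, negative is upstream), as stacked numbers of peak and gene pairs (y axis). The 72 pairs without a coding gene start nearby (red) pile up around 0 with a median of -17 bp, and the 149 pairs of shared peaks (blue) spread further, with a range from -887 to 889 bp.

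The distance limit of 100 bp was not a steep edge. The 3 members farthest from their gene lay 53 bp (YNCE0023W, density 342), 71 bp (YNCM0007C, 471) and 76 bp (YNCP0019W, 1111) away. The 3 nearest peaks left out lay 112 bp (YNCG0002C, 168), 124 bp (YNCE0025C, 148) and 131 bp (SUF7, 667) away.

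In strength, tRNA gene peaks stood in the middle of the nuclear peaks and away from both extremes. Their median density was 294 (quartiles 221 and 449, range 61.5 to 2928), against 299 (quartiles 193 and 640.5) for other nuclear peaks. Only 8 (3.72%) were among the densest 10% of nuclear peaks and 9 (4.19%) among the weakest 10%, against 10.8% and 10.7% of other nuclear peaks. Peak lengths were close, with medians of 589 and 597 bp. These are descriptions of peaks, which are not replicates, and no test was made of them.

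The position of coding genes separated them further. The 70 tRNA gene peaks without a coding gene start had a median density of 261, against 175 for the 206 other nuclear peaks that also lacked one. They were higher by median in 13 of 13 well-covered libraries, though barely so at time point 8 (244.3 against 243.6). In the poorly covered libraries the order was reversed at time points 13 (20.3 against 44.4) and 18 (83.8 against 112). It held at time point 11 (314 against 188), and at 15 and 16 both medians were 0. Of the 70, 7.14% were among the weakest 10%, against 37.4% of those other peaks. Among peaks with a coding gene start the medians were 320.1 for 145 tRNA gene peaks and 315 for 1621 others, with the tRNA gene peaks higher in 6 of 13 libraries. Of the 70 tRNA gene peaks without a coding gene start, 0 were among the densest 10%, against 11 (5.34%) of the 206 others without one. The highest density of the 70 was 822, at the glycine tRNA gene SUF1, and that of the 206 was 3203.

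**Figure D2:**
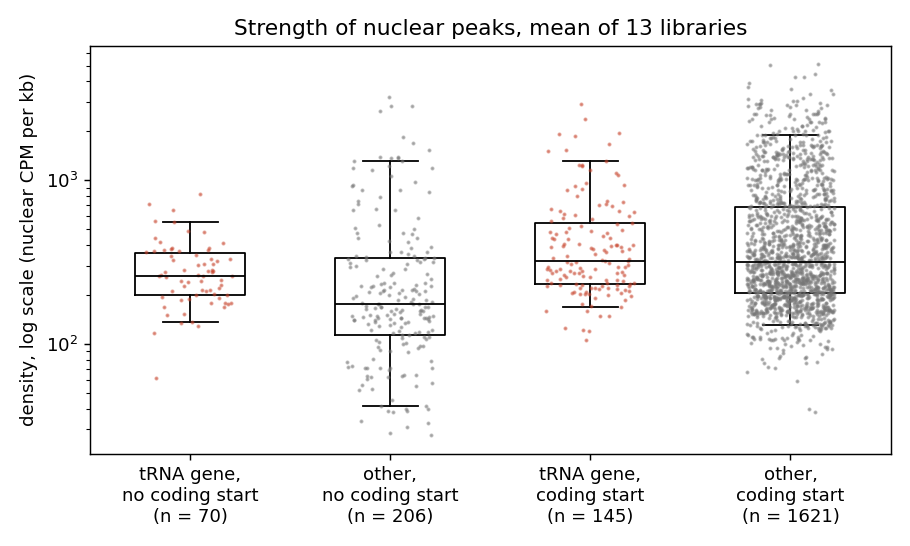
Density of each nuclear peak as the mean of the 13 well-covered libraries (y axis, log scale) in 4 classes by tRNA gene and coding gene start (x axis). Points are peaks, boxes give the quartiles and median, and whiskers run from percentile 5 to 95. The medians without a coding gene start are 261 with a tRNA gene and 175 without one, and the medians with one are 320.1 and 315.

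The 5 densest tRNA gene peaks all had a coding gene start within 500 bp as well. The peak at the serine tRNA gene SUP17 had the highest density, 2928 as a mean, and lies between RGI2 and VHR1, the latter a transcription factor of biotin genes (chromosome IX, 248386 to 249793). Its density was 2398 to 3144 (median 2930.0) in Reductive Charging, 2981, 2568, 3215, 3208 and 2797 at time points 6 to 10 in Oxidative and 3047 and 3169 at time points 12 and 14 in Reductive Building. The 3 phases overlapped, and its SD on the log2 scale over the 13 libraries was 0.13, against a median of 0.58 for tRNA gene peaks and 0.65 for other nuclear peaks. Next came the proline tRNA gene SUF2 at 2357, YNCK0019W at 1930.3, YNCL0039W at 1912 beside TMA10 and NMA1, and YNCE0005W at 1858. YNCE0005W lies in a peak of 2154 bp with the starts of 5 coding genes within 500 bp of it. Among these genes are MCM3 of the replicative helicase and HYP2, the translation factor eIF5A. The density of the YNCE0005W peak also had a small SD, 0.14 on the log2 scale.

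The 5 weakest lay at YNCD0029C (61.5), YNCM0035C (105.0), YNCG0041W (117), YNCM0029C (120.3) and YNCK0003W (122). YNCD0029C and YNCG0041W had no coding gene start nearby. The weak peaks varied more between libraries, with SDs on the log2 scale of 0.59 to 1.41. YNCM0029C, for example, ranged from 6.11 to 237 within Reductive Charging alone.

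The annotation used here gives no amino acid or anticodon, and 228 of the 275 tRNA genes carry only a systematic name. For the 47 genes with a standard name the amino acid was assigned by gene name from outside the annotation, and was not checked here. This gave 12 families, with initiator and elongator methionine kept apart, and 38 peaks. All 4 leucine genes had a peak, with a median density of 638 (368 to 1226). The 3 of 4 serine genes with a peak had a median of 521 (273 to 2928), and the 6 of 7 proline genes one of 373 (217 to 2357). Medians were lower for tyrosine (4 of 8 genes, 264), initiator methionine (4 of 4, 242), elongator methionine (4 of 5, 236) and glycine (7 of 9, 221). Arginine (352) had 2 genes, and alanine (1068), glutamate (557), glutamine (322) and threonine (158) had 1 named gene each, all with a peak. Within a family the densities spread widely, so the families overlapped: elongator methionine ran from 167 at EMT3 to 1652 at EMT5, and initiator methionine from 189.6 at IMT3 to 927 at IMT2. The order of the medians therefore separates no family from its neighbours.

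Peaks were also grouped by the length of the annotated tRNA gene, which needs no name. In budding yeast the longest tRNA genes are those with an intron and those with a long variable arm. Of 192 genes of 71 to 74 bp, 152 (79.2%) had a peak. The figures were 17 of 22 (77.3%) at 82 to 84 bp and 51 of 61 (83.6%) at 89 to 133 bp. Median densities were 298, 270.3 and 315 in that order, with a peak that holds genes of different lengths counted under each.

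Summed over all 215, the tRNA gene peaks held a small share of nuclear peak counts, from 7.90% to 9.35% in the well-covered libraries. In well-covered Reductive Charging libraries the share was 8.14%, 8.05%, 7.90%, 7.91%, 8.19% and 7.97% at time points 1 to 5 and 17, with a mean of 8.03% ± 0.122 (SD, n = 6). In Oxidative libraries it was 8.08%, 8.50%, 8.52%, 8.67% and 8.78% at time points 6 to 10, with a mean of 8.51% ± 0.267 (n = 5). In the 2 Reductive Building libraries it was 9.35% (time point 12) and 8.80% (time point 14), a mean of 9.07% ± 0.394. Reductive Charging and Oxidative values overlapped at time point 6, and both Reductive Building values lay above the other 11. No test was made of this sum over chosen members.

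The 5 poorly covered libraries gave 8.89%, 8.82% and 8.57% in Reductive Building and 3.91% and 7.49% in Reductive Charging. Of these, 8.57% at time point 15 lay inside the Oxidative range, the other Reductive Building values above it and both Reductive Charging values below it. The 3.91% at time point 16 rests on 361 counts, with a Wilson 95% interval of 3.54% to 4.33% that covers counting error only.

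Single peaks weighed in this sum. The mean share in Reductive Building exceeded that in Reductive Charging by 1.05 percentage points, a net value in which some members gained and others lost, and SUF2, one of the densest, went from 0.371% to 0.794% of nuclear counts. The 145 peaks shared with a coding gene start held 6.96% ± 0.086 of nuclear counts in Reductive Charging, 7.38% ± 0.223 in Oxidative and 7.88% ± 0.236 in Reductive Building. The 70 without one held 1.07% ± 0.100, 1.13% ± 0.106 and 1.19% ± 0.159 in the same order, and their 3 ranges overlapped. The median log2(density + 1) of tRNA gene peaks minus that of all nuclear peaks was -0.01 ± 0.06, -0.03 ± 0.07 and -0.10 ± 0.09 in the same order, with overlapping ranges, and the order did not hold with all 18 libraries (-0.10, -0.03 and 0.0038), where both medians are 0 at time points 15 and 16.

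**Figure D3:**
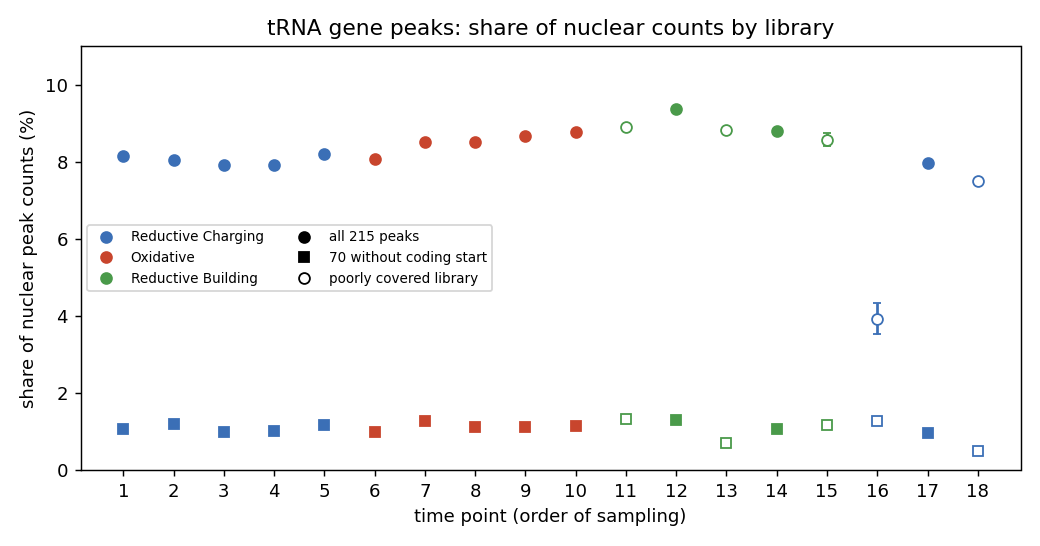
Share of nuclear peak counts in percent (y axis) held by all 215 tRNA gene peaks (circles, with Wilson 95% intervals) and by the 70 without a coding gene start (squares) at each time point (x axis), coloured by phase. Filled symbols are well-covered libraries. The upper values run from 7.90% to 9.35% in the filled symbols, and the open circle at time point 16 is at 3.91%.

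Peak by peak, the tRNA genes followed the nuclear average between phases, and a smaller share of them differed by more than 2-fold, a description with no test. The median log2 fold change of the 215 was 0.02 for Oxidative against Reductive Charging, 0.01 for Reductive Building against Oxidative and -0.07 for Reductive Charging against Reductive Building. Over all nuclear peaks the medians were 0.02, 0.01 and -0.04. Higher values than 0 were found in 111, 108 and 96 of the 215. Changes of more than 2-fold, passed or not, numbered 8 (3.72%), 25 (11.6%) and 20 (9.30%), against 8.13%, 19.3% and 15.8% of nuclear peaks. The median standard errors on the log2 scale were 0.34, 0.46 and 0.45 for tRNA gene peaks, against 0.35, 0.49 and 0.47 for all nuclear peaks. The quartiles of the 215 log2 fold changes were -0.21 and 0.26, -0.41 and 0.41, and -0.41 and 0.35. All of them lay within 1 median standard error of 0.

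The call rule was a Benjamini-Hochberg adjusted p under 0.05 over all 2086 peaks in edgeR's quasi-likelihood test. Between Oxidative and Reductive Charging 3 of the 215 passed (1.40%), all higher, against a background of 2.78% of all peaks in either direction, 1.49% higher and 1.29% lower. Between Reductive Building and Oxidative 4 passed (1.86%), 3 higher and 1 lower, against 1.49% in either direction, 0.575% higher and 0.911% lower. Between Reductive Charging and Reductive Building 2 passed (0.930%), both lower, against 1.44% in either direction, 0.767% higher and 0.671% lower. Each share is near its background, and the comparisons share their libraries, so their counts are not independent. At an unadjusted p under 0.05 the members numbered 23, 20 and 26 (10.7%, 9.30% and 12.1%), against 16.5%, 15.5% and 13.8% of all peaks. With all 18 libraries edgeR called 0 members and 0 peaks of the table (0%) in each comparison, with 3, 3 and 10 members at an unadjusted p under 0.05. limma-voom with library quality weights on the 18 called 6, 0 and 0 members, against 4.79%, 0% and 0% of all peaks. On the 13 libraries DESeq2 called 7, 7 and 3 members, against 6.14%, 4.99% and 2.64% of all peaks, and limma-voom without weights 2, 5 and 2, against 2.44%, 2.97% and 0.767%.

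**Figure D4:**
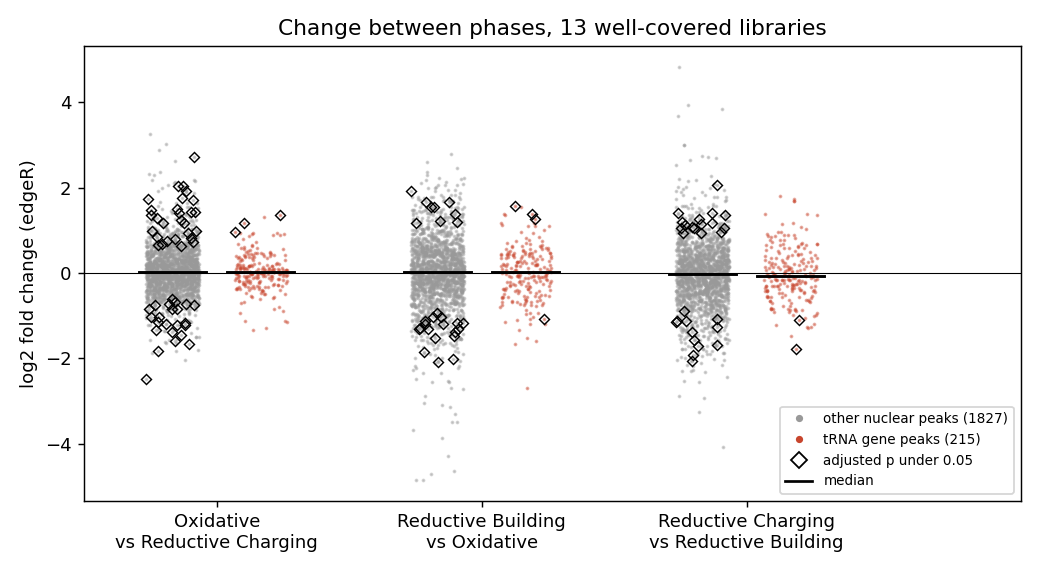
log2 fold change of each nuclear peak (y axis) in the 3 phase comparisons (x axis), for 1827 other nuclear peaks (grey) and 215 tRNA gene peaks (red), with diamonds for an adjusted p under 0.05 and bars for medians. The red medians are 0.02, 0.01 and -0.07, and 3, 4 and 2 red points carry a diamond.

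In the Oxidative phase the peaks at SUP61, YNCK0019W (1 of its 2 peaks) and YNCE0018W rose over Reductive Charging. Each also had a coding gene start within 500 bp, not necessarily inside the peak. At SUP61 (chromosome III, 227732 to 229096) these were BUD31, a splicing factor subunit, and HCM1, a cell cycle transcription factor. At YNCK0019W (chromosome XI, 518109 to 519379) they included UTH1, a mitochondrial and cell wall protein. At YNCE0018W (chromosome V, 354834 to 355408) it was UBP9, a ubiquitin protease. The density at SUP61, a serine tRNA gene, was 279.7 to 431 (median 303) in Reductive Charging, 453, 445, 899.9, 761 and 1127 at time points 6 to 10, and 532 and 627 at time points 12 and 14. Reductive Charging lay below every Oxidative library. The log2 fold change was 1.17 ± 0.23 (SE; edgeR adjusted p = 0.0215).

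The YNCK0019W peak does not overlap its tRNA gene, which lies 49 bp away. The gene's other peak, 51 bp away on the other side, went the opposite way and did not pass. It held a mean of 0.0592% of nuclear counts in Reductive Charging and 0.0331% in Oxidative. The peak that rose ran from 1010.2 to 1713 (median 1259) in Reductive Charging and stood at 1762, 1375, 3179, 3469 and 3122 in Oxidative. These 2 groups overlapped at time point 7, and the log2 fold change was 0.96 ± 0.24 (edgeR adjusted p = 0.0432). At time points 12 and 14 in Reductive Building it stood at 2513 and 1920, also above the Reductive Charging range. YNCE0018W ran from 78.4 to 497 (median 359) in Reductive Charging and stood at 589, 572, 1275, 773 and 882 in Oxidative, without overlap. Its log2 fold change was 1.35 ± 0.34 (edgeR adjusted p = 0.0432). In Reductive Building YNCE0018W stood at 523 and 507 at time points 12 and 14, just above the Reductive Charging range. In all 3 peaks time points 8 to 10 were higher than time points 6 and 7.

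These calls were near the threshold. That of SUP61 was lost without any one of time points 1, 2, 3, 4, 8, 9 or 10 (adjusted p up to 0.108), and those of YNCK0019W and YNCE0018W without any one of time points 1 to 5 and 8 to 10 (adjusted p up to 0.151 and 0.168). With 1 library left out, the log2 fold changes of SUP61, YNCK0019W and YNCE0018W ran from 0.98 to 1.33, 0.80 to 1.14, and 1.13 to 1.51. Within time points 1 to 7 alone they were 0.44, 0.38 and 0.65, and none passed (edgeR adjusted p = 0.578, 0.540 and 0.540). Over the other settings they reached 1.68 and 1.45 with total-count scaling, and 3.43 within time points 8 to 18.

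In Reductive Building the peaks at SUF2, SUF10 and YNCN0017W rose over Oxidative, and that at YNCG0033W fell. SUF2 and SUF10 are proline tRNA genes, and each shares its peak with a citrate synthase gene: the peroxisomal CIT2 at SUF2 (chromosome III, 122319 to 124118) and the mitochondrial CIT1 at SUF10 (chromosome XIV, 631184 to 632050). YNCN0017W lies in the next peak along from SUF10 (chromosome XIV, 632155 to 633001), with no coding gene start within 500 bp. YNCG0033W shares its peak with ASN2, an asparagine synthetase (chromosome VII, 738916 to 739971).

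The density at SUF2 was 1917 to 2179 (median 2068) in Reductive Charging, 1924, 2182, 1561, 1659 and 2122 in Oxidative, and 4960.0 and 3864 at time points 12 and 14. Both Reductive Building libraries lay above all 11 others. The log2 fold change against Oxidative was 1.26 ± 0.18 (edgeR adjusted p = 0.00321), the smallest adjusted p of any tRNA gene peak in a phase comparison, and it passed when each of the 13 libraries was left out in turn. The poorly covered Reductive Building libraries were split, with 1829, 5708 and 1642 at time points 11, 13 and 15, and with all 18 libraries the log2 fold change was 1.00 (edgeR adjusted p = 0.963).

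SUF10 stood at 385, 719, 427, 339 and 773 in Oxidative and at 1715 and 944 in Reductive Building, a log2 fold change of 1.39 ± 0.31 (edgeR adjusted p = 0.0288). Reductive Charging, from 556 to 905 (median 718), overlapped the Oxidative range. YNCN0017W stood at 227, 372, 277, 240.4 and 318 in Oxidative and at 998 and 653 in Reductive Building, with 111 to 338 (median 279) in Reductive Charging. Its log2 fold change was 1.57 ± 0.37 (edgeR adjusted p = 0.0459). In both, the 2 Reductive Building libraries were the highest of the 13, and time point 12 was the higher of them.

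YNCG0033W went the other way, with 481, 543, 695, 565 and 607 in Oxidative and 266 and 274 in Reductive Building, below all of the Oxidative libraries. The log2 fold change was -1.07 ± 0.25 (edgeR adjusted p = 0.0373). Its Reductive Charging values, 279 to 449 (median 387), lay between the other groups.

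With 2 libraries, the Reductive Building side rests heavily on time point 12. Without it the adjusted p was 0.369 for SUF10, 0.297 for YNCN0017W and 0.143 for YNCG0033W. The call of SUF10 was also lost without time point 3, 8 or 9, that of YNCN0017W without time point 1, 2, 5, 6, 8, 9 or 10, and that of YNCG0033W without time point 1, 2, 4, 5, 8, 9, 10 or 14, with adjusted p values up to 0.105. The directions did not change in any of these.

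From Reductive Building back to Reductive Charging, SUF2 and YNCN0017W fell, with log2 fold changes of -1.10 ± 0.17 and -1.77 ± 0.36 (edgeR adjusted p = 0.00721 and 0.0186). These are the same 2 Reductive Building libraries as above, so the fall is not independent of the rise. Without time point 12 neither passed (adjusted p = 0.155 and 0.365), and YNCN0017W also missed without time point 3 (0.0525). The third smallest p was that of the proline tRNA gene TRN1 beside ERP2, a component of secretory vesicles, which did not pass (log2 fold change -0.98 ± 0.29, edgeR adjusted p = 0.144). It stood at 102 to 283 (median 187) in Reductive Charging, 178, 159, 166, 161 and 203 in Oxidative and 438 and 331 in Reductive Building.

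The shared peaks that passed between phases were not centred on their tRNA genes. Their centres lay 422 bp (SUP61), 720 bp (YNCK0019W), 152 bp (YNCE0018W), 394 bp (SUF2), 264 bp (SUF10) and 285 bp (YNCG0033W) downstream of the tRNA gene centre. The YNCN0017W peak, the one without a coding gene start, was centred upstream, at -57.5 bp. Among all pairs of shared peaks 51.7% were within 100 bp. Against a median length of 635 bp for shared peaks, SUP61 had 1365 bp, YNCK0019W 1271 bp, SUF2 1800 bp, SUF10 867 bp and YNCG0033W 1056 bp. YNCE0018W was shorter, at 575 bp. The centre of a longer peak can lie farther from a gene that the peak reaches. Whether the tRNA gene or the coding promoter carried the change was not tested.

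By amino acid, the calls between phases fell in 2 of the 12 named families. Of the 6 proline peaks 2 rose in Reductive Building, where 0.575% of all peaks were called higher. The family's median log2 fold change against Oxidative, 0.58, lies between peaks that went opposite ways. TRN1 also stood higher without passing (1.18, edgeR adjusted p = 0.0507). The mean shares of nuclear counts at SUF8, SUF9 and SUF11 went down, from 0.0243%, 0.0184% and 0.0128% in Oxidative to 0.0227%, 0.00956% and 0.0122%. Of the 3 serine peaks SUP61 rose in Oxidative, where the family's median was 0.16. In the other 10 families edgeR called 0 of 29 peaks in each phase comparison, with 2, 3 and 3 at an unadjusted p under 0.05. With 2.78%, 1.49% and 1.44% of all peaks called, 0 of 29 is near the background and says nothing about these families. DESeq2 called 1, 0 and 1 of the 29, against 6.14%, 4.99% and 2.64% of all peaks, and limma-voom 0, 0 and 0, against 2.44%, 2.97% and 0.767%. Their medians for Oxidative against Reductive Charging ran from -1.33 for the single threonine peak, TRT2, to 0.45 for the single glutamate peak, SOE1, and neither of these passed.

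Over the ordered time points, 10 of the 215 tRNA gene peaks changed (4.65%), against 5.08% of all peaks, when a smooth curve over the 13 libraries was tested with edgeR. At an unadjusted p under 0.05 there were 36 (16.7%), against 23.6% of all peaks. Of the 10, 9 were shared with a coding gene start and 1 of the 70 others. With all 18 libraries edgeR called 0 members and 0 peaks (0%), with 5 members at an unadjusted p under 0.05, and limma-voom with quality weights called 13 members, against 10.8% of all peaks. On the 13 libraries DESeq2 called 23 members, against 15.4% of all peaks, and limma-voom 10, against 6.23%.

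The smallest p was that of the tyrosine tRNA gene SUP3, which shares its peak with TOS7 (chromosome XV, 288104 to 288821; edgeR adjusted p = 0.00536). Its density was 409 at time point 1, climbed through 563 at time point 6 to 1145 at time point 10, then stood at 889.9 and 658 at time points 12 and 14 and at 176 at time point 17. The call held when each library was left out in turn. SUP61 (adjusted p = 0.0131), YNCE0018W (0.0172) and YNCK0019W (0.0198), described above, also changed over time in edgeR's test. They too were highest within time points 8 to 10.

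YNCP0023W showed the opposite course (chromosome XVI, 860196 to 861095; edgeR adjusted p = 0.0497). It shares its peak with GPH1, the glycogen phosphorylase that releases glucose from stored glycogen. Its density ran from 1438 to 2064 (median 1554) in Reductive Charging, went down through 1185, 1237, 736, 488 and 251 at time points 6 to 10, and stood at 869 and 1448 at time points 12 and 14. No Oxidative value reached the Reductive Charging range, and the log2 fold change of -1.12 ± 0.31 did not pass in the phase test (edgeR adjusted p = 0.0583). The time call was lost without any one of time points 3 to 6 and 8 to 10, with adjusted p up to 0.109. SUP61 missed without time point 10 (0.0559), YNCE0018W without 17 (0.0509) and YNCK0019W without 8 (0.0513) or 10 (0.0676).

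**Figure D5:**
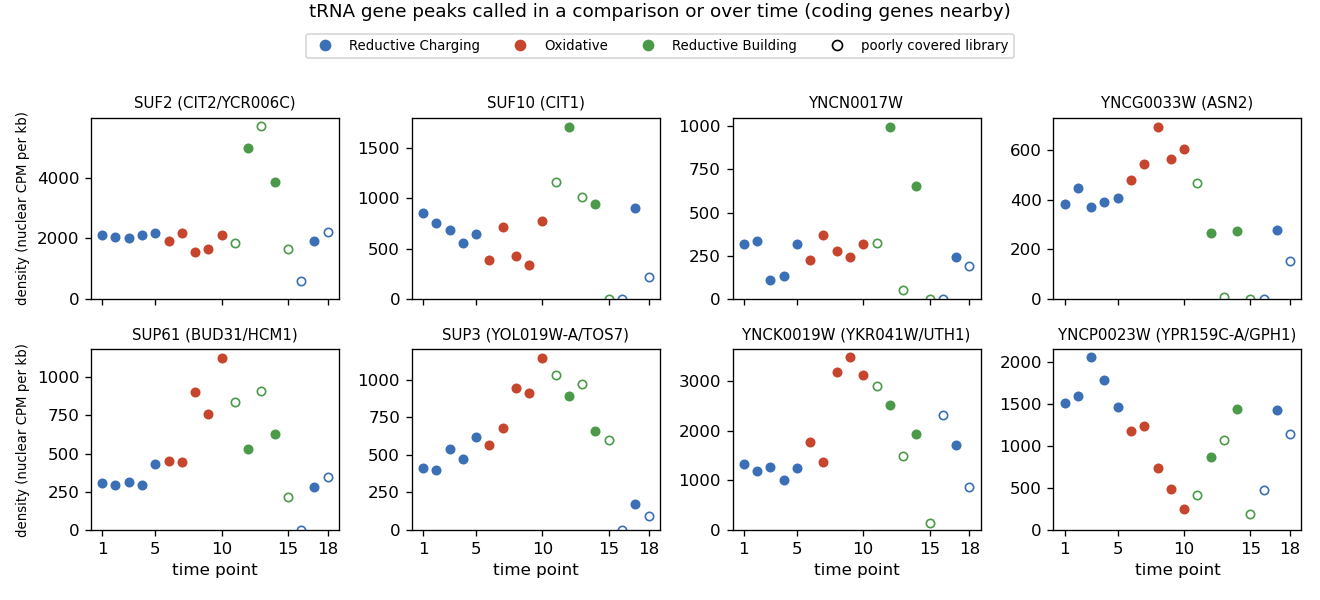
Density in nuclear CPM per kb (y axis, starting at 0, own scale in each panel) at each time point (x axis) for 8 tRNA gene peaks that passed in a phase comparison or over time, with coding genes nearby in brackets. Filled circles are well-covered libraries and open circles poorly covered ones, coloured by phase. SUF2 stands at 4960.0 and 3864 at time points 12 and 14, and YNCP0023W is lowest among filled circles at time point 10, at 251.

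The other 5 time calls hung on a single library, time point 17, the last well-covered one. YNCJ0006W (beside MDV1, a mitochondrial fission adaptor) was at 6.09 there and YNCL0034W at 2.45, against 134 to 401 and 148 to 541 in the other 12. YNCI0011W (beside the endocytosis gene PAN1), YNCD0004W (beside the glycerol gene GPD1) and YNCD0014C (beside the glutaredoxin gene GRX3) were at their highest there, 1142, 2018 and 530.1. With all 13 libraries the edgeR adjusted p values were 0.00901, 0.0175, 0.0330, 0.0383 and 0.0430. Without time point 17 they were 0.573, 0.625, 0.568, 0.456 and 0.691. YNCI0011W was also lost without time point 12 (0.0591), YNCD0004W without 4, 5, 8 or 10 (up to 0.0767) and YNCD0014C without 1, 2, 4, 5, 6, 8, 10 or 12 (up to 0.0845).

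The other genes of RNA polymerase III had peaks at 4 of 5, and edgeR, DESeq2 and limma-voom each called 0 of the 4 in any comparison. In edgeR 2.78%, 1.49% and 1.44% of all peaks were called between phases and 5.08% over time. DESeq2 called at most 15.4% and limma-voom at most 6.23%. So 0 of 4 is near the background and says nothing about these genes. Against 16.5%, 15.5% and 13.8% of all peaks at an unadjusted p under 0.05 in edgeR, they numbered 0, 2 and 2 in the 3 phase comparisons. The densest were SCR1, the RNA of the signal recognition particle, at 2801, and RPR1, the RNA of the RNase P enzyme that trims tRNA 5' ends, at 2216. Only SUP17 and SUF2 among tRNA genes reached the level of RPR1. SNR52, a small nucleolar RNA gene, was at 432 and RNA170 at 227. SNR6, the U6 spliceosomal RNA gene, had no peak within 100 bp. SNR52 and RPR1 stood lower in Reductive Building than in Oxidative (log2 fold changes of -1.12 ± 0.39 and -0.56 ± 0.23), which did not pass (edgeR adjusted p = 0.153 and 0.246). All 4 peaks also have a coding gene start within 500 bp.

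Coding genes of the tRNA pathway were sparsely represented, since a peak was found within 500 bp of the annotated start for 5 of 17 RNA polymerase III subunit genes, 0 of 10 genes for TFIIIB, TFIIIC and Maf1, 8 of 23 for tRNA processing and export and 8 of 22 aminoacyl-tRNA synthetases. edgeR called 0 of their peaks in a phase comparison, against 2.78%, 1.49% and 1.44% of all peaks. At an unadjusted p under 0.05 they numbered 4, 3 and 1, against 16.5%, 15.5% and 13.8%. limma-voom called 0, against 2.44%, 2.97% and 0.767%. DESeq2 called 1, a synthetase peak in Oxidative against Reductive Charging, where it called 6.14% of all peaks. With so few peaks, these counts are near the background and say nothing about the lists. Median log2 fold changes for Oxidative against Reductive Charging were -0.0026 for the subunits, 0.11 for processing and export and 0.35 for the 7 synthetase peaks, beside 0.02 for all nuclear peaks. The smallest p among subunit genes were those of the largest subunit gene RPO31 (-0.81 ± 0.91), RPC37 (-0.38 ± 0.43) and RET1 (0.17 ± 0.42). In processing and export they were those of the RNase P subunit genes POP3 (0.56 ± 0.24), RPR2 (-0.52 ± 0.22) and POP1 (0.51 ± 0.23), with edgeR adjusted p values of 0.234, 0.243 and 0.276. Among synthetases, the peak between DED81, for asparagine, and YHR020W, for proline, stood higher by 1.16 ± 0.31 and missed the threshold (edgeR adjusted p = 0.0523), followed by ILS1, for isoleucine, at -0.83 ± 0.48. That shared peak of DED81 and YHR020W was the 1 peak of these lists that changed over time (edgeR adjusted p = 0.0330), where 5.08% of all peaks were called.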

How the data were processed

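The authors deposited 1 table of raw, unnormalized counts for 2086 peaks in 18 libraries. The submitters' processing notes name Trimmomatic, Bowtie2, MACS2 and the genome build R64. The sources used here do not give versions, the counting tool, pooling for peak calls, a shift of insertion sites, or how duplicates and multiply mapping reads were treated; the last bears on near-identical tRNA genes. All 18 columns were matched to samples by name, with 0 left over.

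tRNA genes came from the RefSeq gene table (assembly R64). Amino acids were assigned only to genes with a standard name, by that name and from outside the annotation. Sequences were not used here. The members, gene lists and settings were chosen with earlier results of these data known.

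Phases were compared with edgeR 4.0.16 (quasi-likelihood F test, TMM scaling, filterByExpr, which removed 0 peaks, robust dispersion) in R 4.3.3, in 1 fit of the 13 well-covered libraries, those in which no more than 10% of nuclear peaks lacked counts. Adjustment was Benjamini-Hochberg over all 2086 peaks, with a threshold of 0.05. Time was a natural spline of time point with 4 degrees of freedom. Standard errors were derived from each log2 fold change and F statistic. Tests were checked on simulated counts. The peaks named were the 5 of highest and 5 of lowest density, those past the threshold (up to 5 each way in a comparison, or the 3 of smallest p where fewer than 3 passed, and the 10 of smallest p over time), every named amino acid family, other RNA polymerase III genes and the 3 list genes of smallest p. The alternatives were all 18 libraries, other scalings (DESeq2 size factors, total counts, nuclear totals, loess offsets), no filter or at least 10 counts, DESeq2 1.42.0, limma-voom (limma 3.58.1) with and without quality weights, nuclear peaks only, distances of 0 and 250 bp, other spline degrees of freedom, subsets of time points and leaving out each library. Intervals and floors cover counting error only.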

Additional observations from a re-analysis of the deposited data

Results flagged for a closer look

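In 37 groups of 4 to 10 libraries, 5 held a library far from the rest, by a gap to its nearest neighbour that is large against the range of the group. A rate of 1 in 20, or 1.85 of 37, would apply to independent groups. These groups share libraries and include peaks named for their change over time, so that rate is no benchmark for the 5. The share of nuclear counts in tRNA gene peaks was 3.91% at time point 16, against 7.49% to 8.19% in the other Reductive Charging libraries, and that library had 9228 nuclear counts in all. The density at SUP61 was 431 at time point 5, against 279.7 to 316 in the other well-covered Reductive Charging libraries. The other 3 were at time point 17, again against well-covered Reductive Charging libraries: YNCI0011W at 1142 (others 167 to 475), YNCD0004W at 2018 (others 1110.4 to 1351) and YNCD0014C at 530.1 (others 197 to 277). The time calls of these 3 peaks were lost without time point 17.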

How the results depend on the processing

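No result changed sign past its threshold under any setting run, and of the 522 values of single named peaks under an alternative 385 kept their side of the threshold and 137 lost it. The number of tRNA gene peaks called moved most. Between Oxidative and Reductive Charging it was 3, and became 0 with all 18 libraries, 9 with total-count scaling, 5 with loess offsets, 5 with at least 10 counts in every library, 7 with DESeq2, 6 with quality weights on all 18 libraries, 0 within time points 1 to 7, 6 within the well-covered time points 8 to 18, and 0 among peaks without a coding gene start. Total-count scaling moved the median of all nuclear peaks by 0.50 on the log2 scale there and by -0.46 for Reductive Charging against Reductive Building. Between Reductive Building and Oxidative the count was 4, and became 0 with all 18 libraries, 0 with total counts, 7 with DESeq2, 0 with quality weights, 7 with Reductive Charging time points 1 to 5 only, 0 within time points 8 to 18 and 1 without a coding gene start. Between Reductive Charging and Reductive Building it was 2, and became 0 with all 18 libraries, 0 with quality weights, 0 within time points 8 to 18 and 1 without a coding gene start. Over time it was 10, and became 0 with all 18 libraries, 3 with total counts, 6 with nuclear totals, 23 with DESeq2, 17 with 5 spline degrees of freedom and 1 without a coding gene start. Apart from the fewer libraries or peaks some settings hold, the cause was not tested.

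Leaving out 1 library gave 0 to 5, 1 to 10, 0 to 10 and 4 to 12 called peaks in the same order. The first was 0 without time point 1, 2, 3, 4, 8, 9 or 10, 1 without 5 and 5 without 6. The second was 10 without time point 14, 7 without 17, 1 without 8, 9 or 12 and 2 without 1, 2, 5 or 10. The third was 10 without time point 14, 0 without 12 and 1 without 3. The fourth was 4 without time point 17 and 6 without 8 or 10.

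The median log2 fold change of tRNA gene peaks minus that of nuclear peaks was -0.0076, -0.0002 and -0.03 in the 3 comparisons. For Reductive Building against Oxidative it was 0.14 with all 18 libraries and 0.12 for peaks without a coding gene start. For Reductive Charging against Reductive Building it was -0.16 and -0.12 under the same settings and 0.055 within time points 8 to 18. Leaving out 1 library gave -0.0097 to 0.012, -0.044 to 0.11 and -0.11 to 0.044. The share of nuclear counts in Reductive Charging, Oxidative and Reductive Building, 8.03%, 8.51% and 9.07%, was 7.39%, 7.72% and 8.17% for overlapping peaks only, 1.07%, 1.13% and 1.19% without a coding gene start, and 2.29%, 3.33% and 3.50% of all counts. It was 5.26%, 5.57% and 5.78% without the 10 densest tRNA gene peaks, a setting chosen after seeing the data, and 7.44% in Reductive Charging with all 18 libraries. Leaving out 1 library gave 7.99% to 8.05%, 8.44% to 8.62% and 8.80% to 9.35%.

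No paired analysis was possible because the labels give no replicate numbers, and batches were not assigned to libraries. In the poorly covered libraries depth limits single peaks: 3 counts are 0.0325% of the nuclear counts at time point 16.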
